A study of Mus musculus with 26 samples.

Results

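The 10 genes described here drive or restrain the passage of a cell through the G1 phase, and were taken by their symbols from the 52636 genes listed for each library. They are the D-type cyclins Ccnd1, Ccnd2 and Ccnd3, the kinases Cdk4 and Cdk6, the Cip/Kip inhibitors Cdkn1a, Cdkn1b and Cdkn1c, and the INK4 inhibitors Cdkn2c and Cdkn2d. D-type cyclins are made when growth factors act on a cell. They bind Cdk4 or Cdk6, and the active kinase phosphorylates the retinoblastoma protein, which frees E2F factors to switch on genes of S phase. INK4 proteins bind Cdk4 and Cdk6 and keep them from cyclin D, whereas Cip/Kip proteins bind complexes of cyclin and kinase and block above all those with Cdk2. In blood formation this switch sets how often progenitors divide and when maturing cells leave the cycle.

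RNA was sequenced from granulocyte-macrophage progenitors (GMPs), common myeloid progenitors (CMPs) and bone marrow-derived mast cells (BMMCs) of wild-type and Prss57-/- mice. Prss57 encodes neutrophil serine protease 4 (NSP4), and the Prss57-/- strain lacks exon 2 of the gene in the germline, deleted in C57BL/6N embryonic stem cells with an adenovirus that carried Cre. GMPs and CMPs were sorted from the bone marrow of female littermates as Lin-, SCA-1-, CD117+, CD34+ cells with high (GMP) or low (CMP) CD16/32, with 4 libraries of each cell type and genotype, all from 1 sequencing run. BMMCs were grown from GMPs in interleukin-3 and stem cell factor, with 5 libraries of each genotype, all from male mice and another run. No group received a treatment beyond this culture. Between BMMCs and progenitors, the effects of cell type, culture, sex and run cannot be told apart. In such bulk RNA fewer cells of a type and less RNA per cell cannot be told apart either.

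The depth was 35501671 to 51497962 counted reads in GMP libraries, 32078404 to 53264762 in CMP libraries and 18627626 to 28647216 in BMMC libraries. Levels are given as normalized RPKM (reads per kilobase of exon, scaled for depth by 1 size factor per library), so that they can be compared between genes. Prss57 was at 145 ± 35.7 (SD, n = 4) in wild-type GMPs and at 0.132 ± 0.0626 (SD, n = 4) in Prss57-/- GMPs. The summed level of 8 mast cell markers was 25378 to 75303 in BMMCs and at most 544 in a progenitor library. BMMCs also held macrophage markers, whose 6 genes summed to 1136 to 1778 in all BMMC libraries but Prss57-/- library 3, at 131. This library stood apart, with a mean correlation of 0.92 with its own group across genes against 0.97 to 0.98 for the other Prss57-/- BMMC libraries, and values without it are given where they differ. The progenitor libraries also differed in how their levels changed with transcript length. The slope of a library's log2 level, relative to the mean of its run, on log2 exon length was -0.35 to 0.14 in Prss57-/- CMPs, -0.03 to 0.19 in Prss57-/- GMPs, -0.12 to 0.09 in wild-type CMPs and -0.08 to 0.13 in wild-type GMPs.

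**Figure D1:**
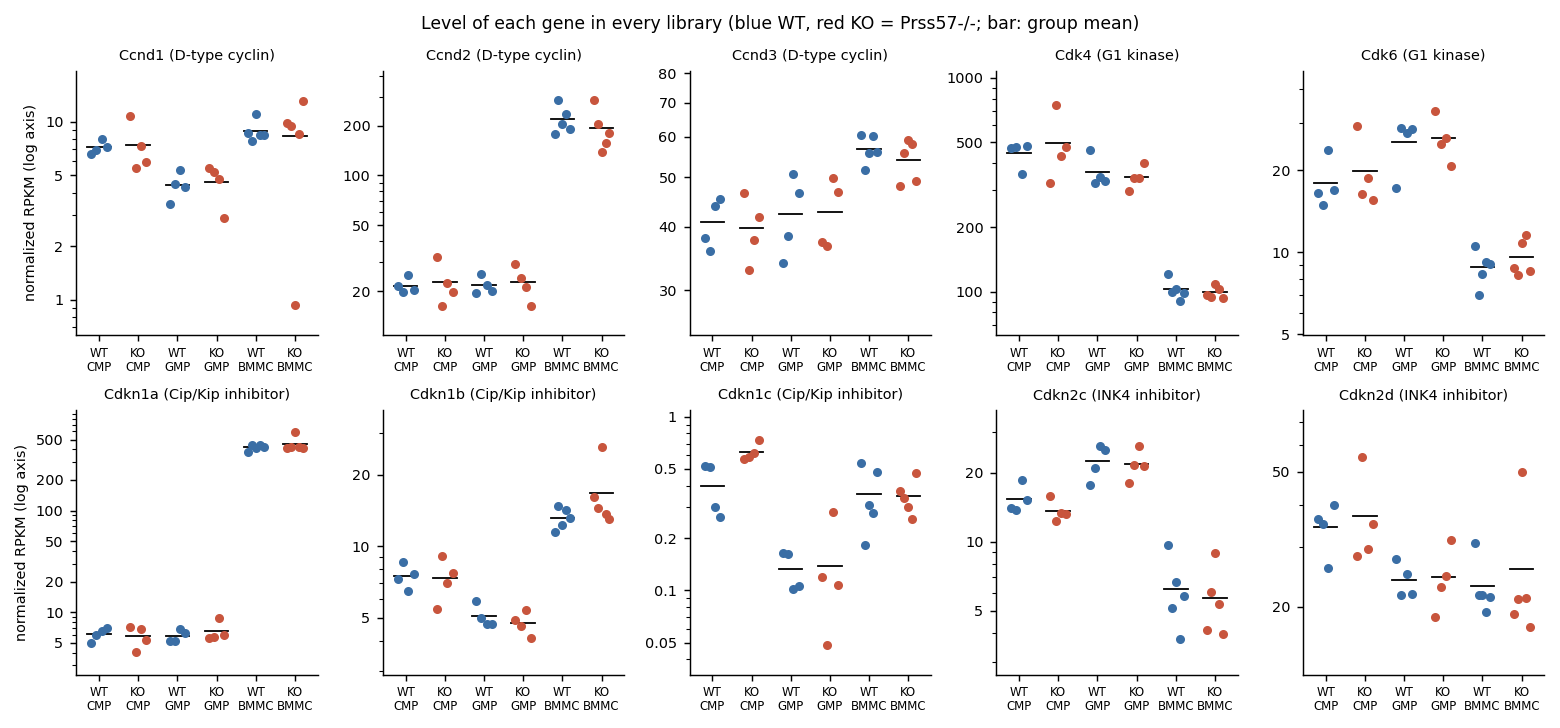
Normalized RPKM (log axes, 1 scale per gene) of the 10 genes in each of the 26 libraries, in blue for wild type (WT) and red for Prss57-/- (KO), with a bar at the mean of each group of 4 (CMP, GMP) or 5 (BMMC) libraries. Cdkn1a and Ccnd2 lie far higher in all BMMC libraries than in any progenitor library, Cdk4, Cdk6 and Cdkn2c lie lower, and Prss57-/- BMMC library 3 is alone at 0.938 for Ccnd1.

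In wild-type CMPs, Cdk4 was the most abundant of the 10 genes at 445 ± 60.8 normalized RPKM (SD, n = 4), followed by Ccnd3 at 40.8 ± 4.56, Cdkn2d at 34.3 ± 5.86, Ccnd2 at 21.6 ± 2.29, Cdk6 at 18.0 ± 3.90 and Cdkn2c at 15.4 ± 2.22. Cdkn1b (7.52 ± 0.872), Ccnd1 (7.20 ± 0.622) and Cdkn1a (6.11 ± 0.875) came next, and Cdkn1c was last at 0.399 ± 0.135. Only Cdk4 and Cdkn1c were clear of their neighbours in every library of this order, along with the step from Cdkn2c to Cdkn1b and that from Cdkn2d to Ccnd2. In wild-type GMPs, Cdk4 was again first (364 ± 64.8, SD, n = 4) and Ccnd3 the next (42.4 ± 7.61). Cdk6, Cdkn2d, Cdkn2c and Ccnd2 had means between 21.6 and 25.4 and overlapped with each other. In wild-type BMMCs the order was led by Cdkn1a at 419 ± 26.2 (SD, n = 5) and Ccnd2 at 219 ± 43.4, with Cdk4 only the third at 103 ± 11.1, and no library overlapped between these 3 genes. Ccnd1, Cdk6 and Cdkn2c, at means of 8.87, 8.82 and 6.21, overlapped with each other there.

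The upstream sequences of 3 genes that differed between BMMCs and progenitors are shown, because they hold more matches to motifs of factors known to act on the cell cycle (E-boxes, an E2F-type site and p53 half-sites) than those of the other members. They come from a partial set of RefSeq starts on GRCm38.p6. This set held 10 start sites of 7 of the 10 genes, and none of Ccnd1, Ccnd2 and Cdkn1c. Each sequence covers the 250 bases before a start, written in the direction of the gene. Capitals mark matches, on either strand, to the E-box CACGTG, which Myc and its relatives bind, the GC box GGGCGG, which Sp1 binds, the E2F-type site TTTNNCGC, the box TATAAA, the GATA-type site AGATAA, the box CCAAT, and the p53 half-site. No match overlaps another in these sequences. The p53 half-site was added after the sequences had been read.
Cdk4, chr10:127063285-127063534, forward strand: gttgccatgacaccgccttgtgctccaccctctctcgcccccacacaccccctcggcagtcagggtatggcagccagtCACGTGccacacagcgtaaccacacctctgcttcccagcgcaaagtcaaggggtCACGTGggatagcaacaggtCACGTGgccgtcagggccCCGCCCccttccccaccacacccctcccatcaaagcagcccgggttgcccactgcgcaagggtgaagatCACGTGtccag
Cdk6, chr5:3343643-3343892, forward strand: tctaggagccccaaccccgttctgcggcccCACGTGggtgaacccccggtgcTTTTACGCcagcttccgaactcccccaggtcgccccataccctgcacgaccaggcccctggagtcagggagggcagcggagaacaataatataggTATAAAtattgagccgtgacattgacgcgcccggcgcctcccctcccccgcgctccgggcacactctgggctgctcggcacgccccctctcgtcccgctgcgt
Cdkn1a (the first of 2 listed starts), chr17:29090729-29090978, forward strand: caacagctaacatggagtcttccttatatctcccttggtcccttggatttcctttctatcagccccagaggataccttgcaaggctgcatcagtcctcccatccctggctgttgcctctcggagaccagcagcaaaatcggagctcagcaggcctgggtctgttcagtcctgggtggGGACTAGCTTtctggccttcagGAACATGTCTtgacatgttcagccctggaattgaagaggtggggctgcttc
The Cdk4 window held 4 E-boxes, which start 172, 118, 98 and 11 bases before the gene's start, and 1 GC box. At least 1 E-box was found in 6.02% of the 32851 windows searched, and 4 or more in 7 windows. Cdk6 had 1 E-box (220 bases before the start), 1 E2F-type site and 1 TATAAA box, which 4.28% and 12.4% of all windows held. The Cdkn1a window held 2 p53 half-sites, 73 and 51 bases before its first start, where 7.13% of all windows had at least 1 and 0.259% at least 2. GC boxes were found in 32.7% of all windows, CCAAT boxes in 33.8% and GATA-type sites in 9.99%. The windows of Ccnd3, Cdkn1b and Cdkn2d and the upstream window of Cdkn2c each held 1 to 3 GC boxes, as did the second Cdkn1a window, and no member's window held a GATA-type site. The Cdkn2d window also held 1 p53 half-site. A match is a string of letters and was not tested for binding.

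The D-type cyclins are the part of the switch that senses growth factors. Ccnd1 (ENSMUSG00000070348) lies at chr7:144929931-144939925 on the reverse strand, Ccnd2 (ENSMUSG00000000184) at chr6:127125162-127152193 on the reverse strand and Ccnd3 (ENSMUSG00000034165) at chr17:47505051-47599691 on the forward strand (GRCm38, GENCODE M21). Summed over the 3 genes, D-type cyclin RNA was at 69.5 ± 6.45 normalized RPKM (SD, n = 4) in wild-type CMPs and 68.4 ± 8.80 (SD, n = 4) in wild-type GMPs. In wild-type BMMCs the sum was 285 ± 40.5 (SD, n = 5), and in Prss57-/- BMMCs 255 ± 55.1 (SD, n = 5). The makeup of that sum differed by cell type. Ccnd3 made up 58.6% ± 2.44 of it in wild-type CMPs and 61.7% ± 4.47 in wild-type GMPs (SD, n = 4), whereas Ccnd2 made up 76.5% ± 4.04 in wild-type BMMCs and 74.6% ± 5.37 in Prss57-/- BMMCs (SD, n = 5). Ccnd1 was the smallest part everywhere. It was 10.4% ± 0.545 in wild-type CMPs and 6.39% ± 0.418 in wild-type GMPs, and 10.4% ± 1.34 in Prss57-/- CMPs and 6.55% ± 1.61 in Prss57-/- GMPs (SD, n = 4), with no overlap between the 8 CMP libraries (at least 8.83%) and the 8 GMP libraries (4.37% to 7.90%).

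**Figure D2:**
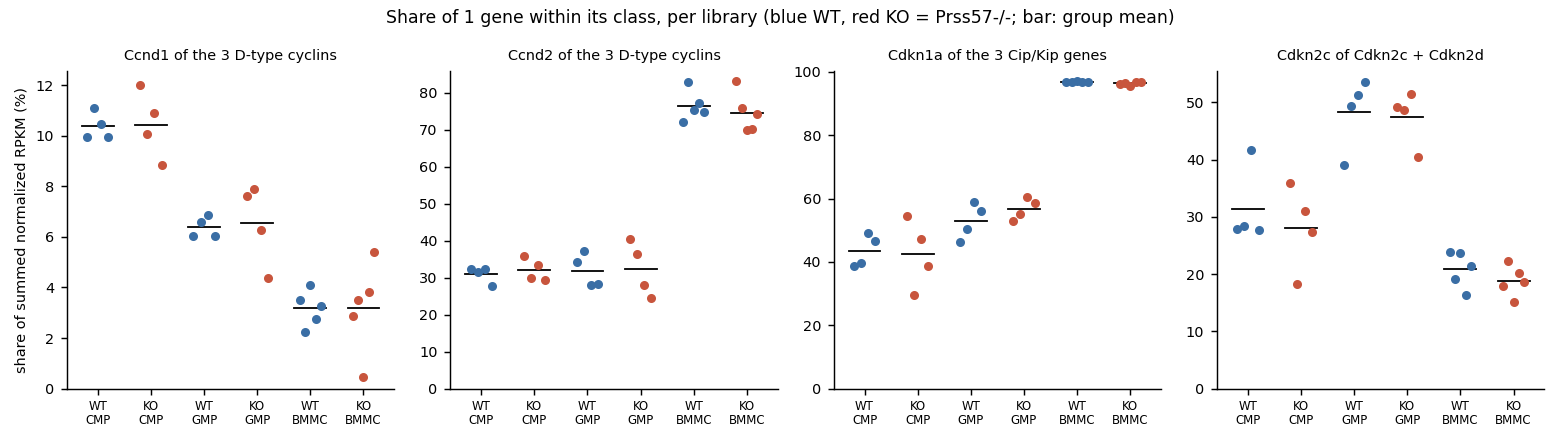
Share of 1 gene in the summed normalized RPKM of its class (%, axes from 0), per library, for Ccnd1 and Ccnd2 among the D-type cyclins, Cdkn1a among the Cip/Kip genes and Cdkn2c among Cdkn2c and Cdkn2d, in blue for wild type (WT) and red for Prss57-/- (KO), with a bar at each group mean. Ccnd2 takes 69.9% to 83.1% of D-type cyclin RNA in BMMCs, Cdkn1a takes 95.7% to 97.0% of Cip/Kip RNA there, and the Ccnd1 share is lower in every GMP library than in every CMP library.

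The kinases had 1 dominant member. Cdk4 (ENSMUSG00000006728) lies at chr10:127063534-127067920 and Cdk6 (ENSMUSG00000040274) at chr5:3341485-3531008, both on the forward strand. Cdk4 made up 96.0% ± 1.51 of their summed RNA in wild-type CMPs, 93.2% ± 2.14 in wild-type GMPs (SD, n = 4) and 92.1% ± 1.02 in wild-type BMMCs (SD, n = 5). The sum was 463 ± 57.0 normalized RPKM in wild-type CMPs, 389 ± 59.3 in wild-type GMPs and 111 ± 11.8 in wild-type BMMCs.

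Among the Cip/Kip inhibitors, Cdkn1a (p21, ENSMUSG00000023067, chr17:29090976-29100727, forward strand) is a classical target of p53, Cdkn1b (p27, ENSMUSG00000003031, chr6:134920401-134925513, forward strand) holds resting cells in G1, and Cdkn1c (p57, ENSMUSG00000037664, chr7:143458339-143461050, reverse strand) is an imprinted gene. In progenitors Cdkn1a made up 42.5% to 56.8% of their summed RNA as a group mean, and Cdkn1b nearly all the rest. The sum was 14.0 ± 1.14 normalized RPKM in wild-type CMPs and 11.1 ± 0.537 in wild-type GMPs (SD, n = 4). Cdkn1c was a trace, with 5 to 79 reads in any progenitor library. In wild-type BMMCs the sum was 433 ± 27.4 (SD, n = 5), of which Cdkn1a made up 96.9% ± 0.114.

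Of the INK4 inhibitors, which act on Cdk4 and Cdk6 alone, Cdkn2c (p18, ENSMUSG00000028551, chr4:109660876-109667189, reverse strand) and Cdkn2d (p19, ENSMUSG00000096472, chr9:21288410-21291407, reverse strand) were both measured well, with at least 225 reads in every library. Their sum was 49.7 ± 4.31 normalized RPKM in wild-type CMPs, 46.5 ± 3.62 in wild-type GMPs (SD, n = 4) and 29.2 ± 6.65 in wild-type BMMCs (SD, n = 5). Cdkn2c made up 31.4% ± 6.86 of it in wild-type CMPs and 48.3% ± 6.44 in wild-type GMPs (SD, n = 4). The shares in Prss57-/- mice were 28.1% ± 7.46 and 47.4% ± 4.80 (SD, n = 4). The 4 Prss57-/- CMP libraries (18.2% to 35.8%) lay below the 4 Prss57-/- GMP libraries (40.5% to 51.4%), while in wild type CMP library 3 (41.7%) lay above GMP library 1 (39.0%).

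Of the 10 genes, 7 share exon bases with a gene listed on the opposite strand, and how strand was used in counting is not given in the sources used here. Reads from both genes of such a pair cannot then be told apart over these bases. They are 641 bases for Cdk4 and Tspan31, 361 for Ccnd3 and Bysl, 818 for Ccnd1 and LTO1, and at most 422 for Ccnd2, Cdk6 and Cdkn1c, whose partners are antisense genes with at most 395 reads in any library. For Cdkn1a it was 261 bases, with a gene not analysed here. The total over all exons was not computed and may be larger.

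GMPs and CMPs differ by 1 gate, and their comparison asks how the G1 genes changed with commitment to the granulocyte and macrophage lineages. In wild-type mice, Ccnd1 and Cdkn1b were lower in GMPs than in CMPs and no other of the 10 genes passed the test at an adjusted p under 0.01 (quasi-likelihood test of edgeR, with p-values adjusted after Benjamini and Hochberg over 14967 genes). These are 2 of 10 genes, both lower, when 21.0% of all genes tested passed, 10.8% higher and 10.1% lower in GMPs. With a fold of at least 2 required, none of the 10 and 12.8% of all genes passed. In Prss57-/- mice none passed, when 9.83% of all genes did (4.98% higher, 4.85% lower, and 8.42% with a fold of at least 2), although 5 had an unadjusted p under 0.05 by edgeR, 5 by DESeq2 and 4 by limma voom. The median log2 fold change of the 10 genes was -0.15 in wild type and -0.22 in Prss57-/- mice, and that of all genes tested was -0.02 and -0.03. The GMP and CMP libraries did not overlap for 3 of the 10 genes in wild type and for 4 in Prss57-/- mice, against 31.5% and 28.5% of all genes tested.

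Ccnd1, cyclin D1, was at 6.58, 6.95, 8.05 and 7.24 normalized RPKM in wild-type CMP libraries 1 to 4, and at 3.43, 4.49, 5.35 and 4.27 in the GMP libraries. Prss57-/- libraries held it at 10.7, 5.49, 7.35 and 5.97 in CMPs and at 5.49, 5.20, 4.76 and 2.88 in GMPs. The cell types were separate in both genotypes, although in Prss57-/- mice the lowest CMP and the highest GMP library almost met. The fitted log2 fold change (GMP over CMP) was -0.70 (standard error, SE, 0.15, edgeR adjusted p = 0.00571) in wild type, a 1.62-fold lower level, and -0.65 (SE 0.27, edgeR adjusted p = 0.112) in Prss57-/- mice. When 1 library at a time was left out, its edgeR adjusted p was 0.00546 to 0.0225 in wild type and 0.0624 to 0.205 in Prss57-/- mice. None of the 10 genes passed in wild type without CMP library 1, 2 or 4 or GMP library 2 or 4, when 13.6% to 15.4% of all genes passed. Without GMP library 3, 1 passed (13.7% of all genes). Without CMP library 3 or GMP library 1, 5 passed (30.8% and 33.4% of all genes). LTO1, which shares exon bases with Ccnd1, had log2 fold changes in the same direction. They were -0.28 (SE 0.12, edgeR adjusted p = 0.0948) in wild type and -0.18 (SE 0.17, edgeR adjusted p = 0.431) in Prss57-/- mice.

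Cdkn1b was at 7.30, 8.61, 6.51 and 7.67 normalized RPKM in wild-type CMPs and at 5.87, 5.00, 4.73 and 4.73 in wild-type GMPs. Prss57-/- libraries held it at 5.47, 9.10, 7.01 and 7.69 in CMPs and at 4.90, 4.63, 5.38 and 4.12 in GMPs. Every CMP library was above every GMP library of its genotype, by the least margin in Prss57-/- mice. GMPs were 1.46-fold lower in wild type (log2 fold change -0.55, SE 0.13, edgeR adjusted p = 0.00677). The log2 fold change in Prss57-/- mice was -0.57 (SE 0.18, edgeR adjusted p = 0.0478).

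Cdkn1c had the largest fold change of the 10 genes and the fewest reads. Wild-type CMPs held it at 0.265 to 0.519 normalized RPKM (21 to 51 reads) and wild-type GMPs at 0.102 to 0.164 (10 to 19 reads). Prss57-/- CMPs held it at 0.568 to 0.734 (32 to 79 reads) and Prss57-/- GMPs at 0.0488 to 0.281 (5 to 27 reads). The cell types did not overlap in either genotype. The log2 fold change was -1.55 (SE 0.41, edgeR adjusted p = 0.0140) in wild type and -2.12 (SE 0.51, edgeR adjusted p = 0.0182) in Prss57-/- mice, both short of the threshold.

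Cdkn2c was the 1 gene with higher values in GMPs in both genotypes that came near the threshold. It was at 14.0, 13.8, 18.6 and 15.2 normalized RPKM in wild-type CMPs and at 17.7, 21.0, 26.2 and 25.2 in wild-type GMPs. In Prss57-/- CMPs it was at 15.8, 12.3, 13.3 and 13.2, and in Prss57-/- GMPs at 18.0, 21.7, 26.1 and 21.4. CMP library 3 of the wild type, at 18.6, was the only overlap. The log2 fold change was 0.56 (SE 0.16, edgeR adjusted p = 0.0192) in wild type and 0.72 (SE 0.17, edgeR adjusted p = 0.0146) in Prss57-/- mice. Cdkn2d had log2 fold changes of -0.49 (SE 0.14, edgeR adjusted p = 0.0221) and -0.55 (SE 0.24, edgeR adjusted p = 0.123), and Cdk6 of 0.51 (SE 0.20, edgeR adjusted p = 0.0636) and 0.44 (SE 0.24, edgeR adjusted p = 0.191). The other 4 genes, Ccnd2, Ccnd3, Cdk4 and Cdkn1a, lay between -0.47 and 0.19 in both genotypes, with adjusted p-values of at least 0.157.

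Several of these genes moved with the length slope of the libraries. Cdk4 was at 297 to 354 normalized RPKM in the 8 progenitor libraries with a slope above 0 and at 399 to 749 in the 8 with a slope below 0, whatever their cell type or genotype. Cdk6 was at 23.7 to 33.1 in the former and 15.0 to 20.8 in the latter. Neither gene overlapped between these libraries, of which those with a slope above 0 held 6 GMP libraries and those below 0 held 2. In all 4 progenitor groups, the library with the lowest slope was also the highest for Cdk4 and Cdkn2d. Ccnd1 (4.27 to 10.7 and 2.88 to 7.35) and Cdkn1b (4.63 to 6.51 and 4.12 to 9.10) overlapped widely between the libraries above and below 0. Within groups Ccnd1 still moved with the slope, since the library with the lowest slope was its lowest in 3 of the 4 groups. For Cdkn1b that library was the highest in 2 groups and the lowest in 1.

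**Figure D3:**
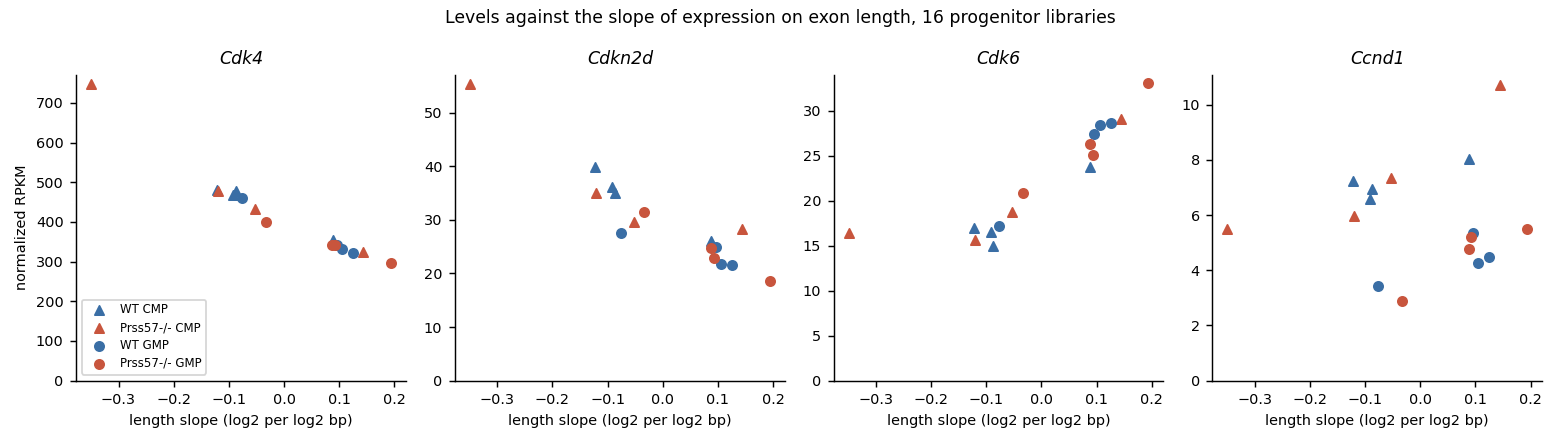
Normalized RPKM of Cdk4, Cdkn2d, Cdk6 and Ccnd1 (axes from 0) against the length slope of the 16 progenitor libraries (log2 level per log2 base pair of exon), with circles for GMPs, triangles for CMPs, blue for wild type (WT) and red for Prss57-/-. Cdk4 lies at 297 to 354 right of 0 and at 399 to 749 left of it, Cdk6 lies at 23.7 to 33.1 and 15.0 to 20.8, and for Ccnd1 most circles lie below the triangles at a like slope.

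A model with this slope as a covariate, chosen after seeing the data, was therefore fitted beside the first. In it 2 of the 10 genes passed in each genotype. Of all genes, 24.9% passed in wild type and 20.3% in Prss57-/- mice, against 21.0% and 9.83% without the slope. With the slope, Ccnd1 was lower in GMPs in both genotypes. Its log2 fold change was -0.91 (SE 0.13, edgeR adjusted p = 0.000130) in wild type and -1.06 (SE 0.15, edgeR adjusted p = 0.000195) in Prss57-/- mice. Cdkn1b was at -0.40 (SE 0.10, edgeR adjusted p = 0.00767) in wild type and -0.38 (SE 0.15, edgeR adjusted p = 0.0677) in Prss57-/- mice. Cdkn2c passed in Prss57-/- mice (0.63, SE 0.14, edgeR adjusted p = 0.00389) and not in wild type (0.32, SE 0.11, edgeR adjusted p = 0.0456). The values of Cdk4 moved to -0.02 and -0.01, and those of Cdk6 to 0.11 in each genotype. Cdkn2d moved to -0.25 and -0.15, Cdkn1c was at -1.35 and -2.12, and Ccnd2 was at -0.15 and -0.37, the latter with an adjusted p of 0.0103 from edgeR. The mean slope itself differed by cell type, at 0.06 in GMPs and -0.05 in CMPs of wild type, and 0.09 and -0.09 in Prss57-/- mice. Where slope and cell type go together, this model cannot tell their effects apart.

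**Figure D4:**
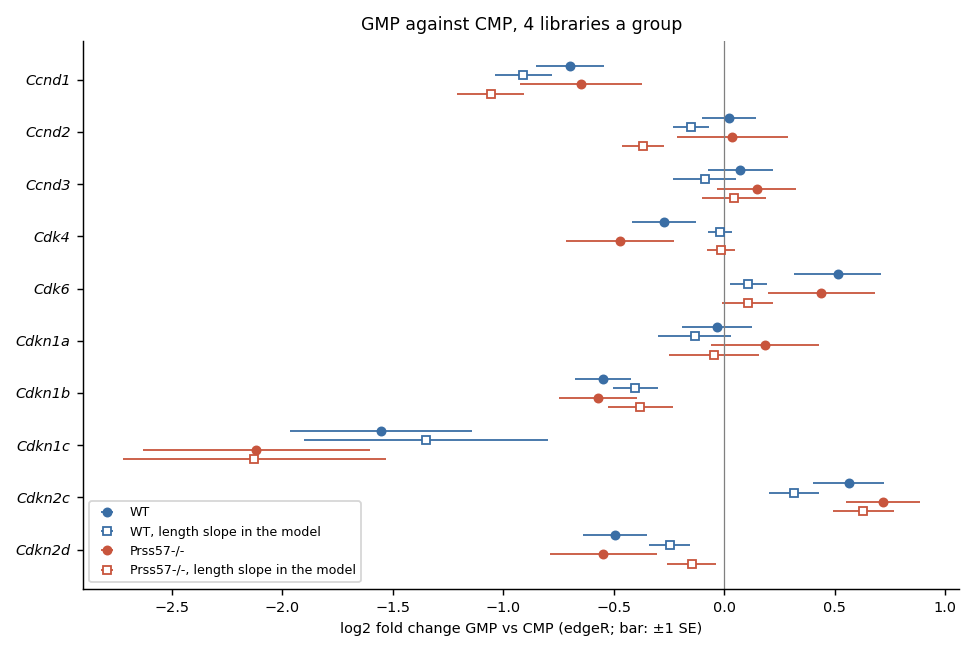
Log2 fold change of GMPs over CMPs from edgeR for each of the 10 genes, in wild type (WT, blue) and Prss57-/- mice (red), 4 libraries a group, with bars of 1 standard error; filled circles are from the model of the groups alone and open squares from that with the length slope. Ccnd1 lies below 0 in all 4 estimates, and Cdk4, at -0.27 and -0.47 from the groups alone, lies at -0.02 and -0.01 with the slope.

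Markers of other cell types also differed between the gates. The 6 erythroid markers summed to 669 to 1285 normalized RPKM in CMPs and 29.4 to 63.8 in GMPs, and the 5 megakaryocyte markers to 812 to 2818 and 34.8 to 88.5. The 6 lymphoid markers summed to 11.8 to 23.2 in CMPs and 0.474 to 1.80 in GMPs. The 5 stem cell markers were at 9.42 to 12.3 and 4.46 to 5.45, and the 6 dendritic cell markers at 81.9 to 139 and 39.4 to 75.2. Other lists had higher sums in GMPs. The 4 eosinophil and basophil markers summed to 25.0 to 127 in CMPs and 3464 to 6469 in GMPs, and the 6 neutrophil granule markers to 3900 to 9995 and 26531 to 39780. The 5 monocyte markers summed to 283 to 438 in CMPs and 1179 to 1891 in GMPs, and the 8 mast cell markers to 123 to 160 and 315 to 544. The 6 macrophage markers summed to 18.5 to 31.7 in CMPs and 33.4 to 52.0 in GMPs. All 6 erythroid and all 5 megakaryocyte markers were above 1 normalized RPKM in every CMP library, and the part of these and the other cell types in the differences of Ccnd1, Cdkn1b and Cdkn1c was not tested.

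BMMCs differed from progenitors in most of the 10 genes and with far larger values. Cdkn1a and Ccnd2 were higher and Cdk4, Cdk6 and Cdkn2c lower in all 4 comparisons of BMMCs with GMPs or CMPs of the same genotype, and Cdkn1b was higher in all 4. Against wild-type GMPs, 5 of the 10 genes were higher and 3 lower, when 74.4% of the 14754 genes tested passed (37.5% higher, 36.9% lower). Against wild-type CMPs 4 were higher and 4 lower, when 77.2% passed (38.6% higher, 38.6% lower). In Prss57-/- mice 3 were higher and 3 lower against GMPs, when 63.3% of all genes passed (32.2% higher, 31.1% lower). Against CMPs 3 were higher and 3 lower as well, when 58.8% passed (28.9% higher, 29.9% lower). With a fold of at least 2 required, 7, 5, 6 and 6 of the 10 genes passed in these comparisons, against 51.7%, 57.5%, 47.9% and 52.3% of all genes. Libraries of the compared groups did not overlap for 9, 7, 6 and 8 of the 10 genes, against 75.3%, 76.9%, 65.0% and 61.3% of all genes. The share of the 10 genes that passed is near that of all genes. Without Prss57-/- BMMC library 3, 7 passed against Prss57-/- GMPs and 7 against Prss57-/- CMPs, when 72.8% and 63.9% of all genes did. The comparisons with GMPs and with CMPs share their BMMC libraries, and those of the 2 genotypes share none.

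Cdkn1a had the largest value. It was at 4.93, 5.98, 6.58 and 6.93 normalized RPKM in wild-type CMPs and at 5.23, 5.27, 6.89 and 6.21 in wild-type GMPs, but at 378, 444, 412, 438 and 425 in wild-type BMMCs. In Prss57-/- BMMCs it was at 415, 417, 586, 420.1 and 409, with library 3 the highest. No BMMC library came near a progenitor library. Wild-type BMMCs were 66.6-fold above GMPs (log2 fold change 6.06, SE 0.13, edgeR adjusted p = 1.31e-11) and 64.4-fold above CMPs (6.01, SE 0.14, edgeR adjusted p = 4.75e-12). The folds in Prss57-/- mice were 64.6 and 71.0, and 59.9 and 66.7 without BMMC library 3.

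Ccnd2, the cyclin D gene that dominates in BMMCs, was at 178, 287, 203, 235 and 192 normalized RPKM in wild-type BMMCs and at 285, 204, 139, 157 and 179 in Prss57-/- BMMCs. Progenitor libraries held it at 16.2 to 32.0. The highest progenitor library was thus far below the lowest BMMC library, Prss57-/- library 3. Wild-type BMMCs were 9.48-fold above GMPs (log2 fold change 3.24, SE 0.16, edgeR adjusted p = 2.77e-09) and 9.52-fold above CMPs (3.25, SE 0.15, edgeR adjusted p = 7.88e-10). Prss57-/- BMMCs were 7.97-fold and 7.91-fold above them, or 8.56-fold and 8.61-fold without library 3. Ccnd3, the cyclin D gene that leads in progenitors, was at 51.6 to 60.4 in wild-type BMMCs and 33.9 to 50.6 in wild-type GMPs, a log2 fold change of 0.33 (SE 0.12, edgeR adjusted p = 0.0192), and passed only against wild-type CMPs (0.39, SE 0.10, edgeR adjusted p = 0.00230).

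Cdk4 was at 121, 100.2, 103, 90.5 and 98.5 normalized RPKM in wild-type BMMCs and at 96.4, 95.0, 109, 103 and 93.5 in Prss57-/- BMMCs. In GMPs it was at 460.2, 321, 343 and 331 in wild type and at 297, 341, 341 and 399 in Prss57-/- mice. All BMMC libraries lay within a narrow band, well under the lowest progenitor library. BMMCs were 3.79-fold below GMPs in wild type (log2 fold change -1.92, SE 0.13, edgeR adjusted p = 4.58e-08) and 3.70-fold below in Prss57-/- mice (-1.89, SE 0.11, edgeR adjusted p = 4.47e-07). Against CMPs the values were 4.63-fold and 5.35-fold lower. Tspan31, which shares exon bases with Cdk4, was at 100.5 ± 17.4, 109 ± 14.5 (SD, n = 4) and 100.2 ± 4.56 (SD, n = 5) in wild-type CMPs, GMPs and BMMCs.

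Cdk6 was at 10.5, 6.97, 8.33, 9.21 and 9.05 normalized RPKM in wild-type BMMCs and at 8.73, 8.26, 10.8, 11.6 and 8.52 in Prss57-/- BMMCs, against 15.0 to 33.1 over all progenitor libraries. It was 3.07-fold below wild-type GMPs (log2 fold change -1.62, SE 0.16, edgeR adjusted p = 1.25e-06) and 2.18-fold below wild-type CMPs (-1.12, SE 0.15, edgeR adjusted p = 1.06e-05). Cdkn2c was at 9.66, 5.15, 6.68, 3.77 and 5.79 in wild-type BMMCs and at 4.14, 6.02, 8.92, 5.37 and 3.97 in Prss57-/- BMMCs. It was 3.86-fold below wild-type GMPs (-1.95, SE 0.23, edgeR adjusted p = 5.74e-06) and 2.64-fold below wild-type CMPs (-1.40, SE 0.22, edgeR adjusted p = 4.82e-05), with no overlap between BMMC and progenitor libraries for either gene. The log2 fold changes of Cdkn2c in Prss57-/- mice were -2.04 against GMPs and -1.37 against CMPs, or -2.25 and -1.57 without BMMC library 3.

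Cdkn1b was at 11.5, 14.8, 12.3, 14.2 and 13.2 normalized RPKM in wild-type BMMCs and at 16.1, 14.5, 26.2, 13.6 and 13.0 in Prss57-/- BMMCs, where library 3 was the highest. These all lay above the highest progenitor library, at 9.10. The log2 fold change against GMPs was 1.28 (SE 0.11, edgeR adjusted p = 3.11e-07) in wild type and 1.71 (SE 0.22, edgeR adjusted p = 6.38e-05) in Prss57-/- mice, or 1.49 without library 3. Against CMPs it was 0.72 and 1.08, or 0.89 without library 3.

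Ccnd1 and Cdkn2d depended on Prss57-/- BMMC library 3. Ccnd1 was at 8.69, 7.77, 11.1, 8.40 and 8.39 normalized RPKM in wild-type BMMCs and at 9.78, 9.43, 0.938, 8.53 and 13.1 in Prss57-/- BMMCs. Library 3, at 60 reads, was the 1 BMMC library under 577 reads and was also the 1 with little macrophage and dendritic cell marker RNA. Its sum of 6 dendritic cell markers was 70.9, against 825 to 1785 in the other BMMC libraries. Library 3 also had the highest sums of mast cell markers (75303, others 25378 to 47023), stem cell markers (865, others 128 to 392) and erythroid markers (171, others 37.7 to 55.8). The part of any of these cell types in the Ccnd1 level was not tested. Against GMPs, the log2 fold change of Ccnd1 was 0.92 (SE 0.14, edgeR adjusted p = 6.36e-05) in wild type and 0.77 (SE 0.55, edgeR adjusted p = 0.233) in Prss57-/- mice. Without library 3, the latter was 1.06 (SE 0.20, edgeR adjusted p = 0.000521). LTO1, which shares exon bases with Ccnd1, was also higher in BMMCs than in GMPs. Its log2 fold change was 0.79 (SE 0.10, edgeR adjusted p = 8.57e-06) in wild type and 0.90 (SE 0.16, edgeR adjusted p = 0.000641) in Prss57-/- mice. The part of LTO1 reads in the Ccnd1 counts was not tested. Cdkn2d was at 30.9, 21.7, 21.6, 19.3 and 21.3 in wild-type BMMCs and at 19.0, 21.1, 50.0, 21.2 and 17.3 in Prss57-/- BMMCs. Against CMPs its log2 fold change was -0.67 (SE 0.16, edgeR adjusted p = 0.00144) in wild type, -0.63 (SE 0.34, edgeR adjusted p = 0.122) in Prss57-/- mice and -0.99 (SE 0.22, edgeR adjusted p = 0.00268) there without library 3. Cdkn1c, at 7 to 22 reads in BMMC libraries, was higher than in GMPs in wild type (log2 fold change 1.32, SE 0.38, edgeR adjusted p = 0.00614) and passed in no other comparison.

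**Figure D5:**
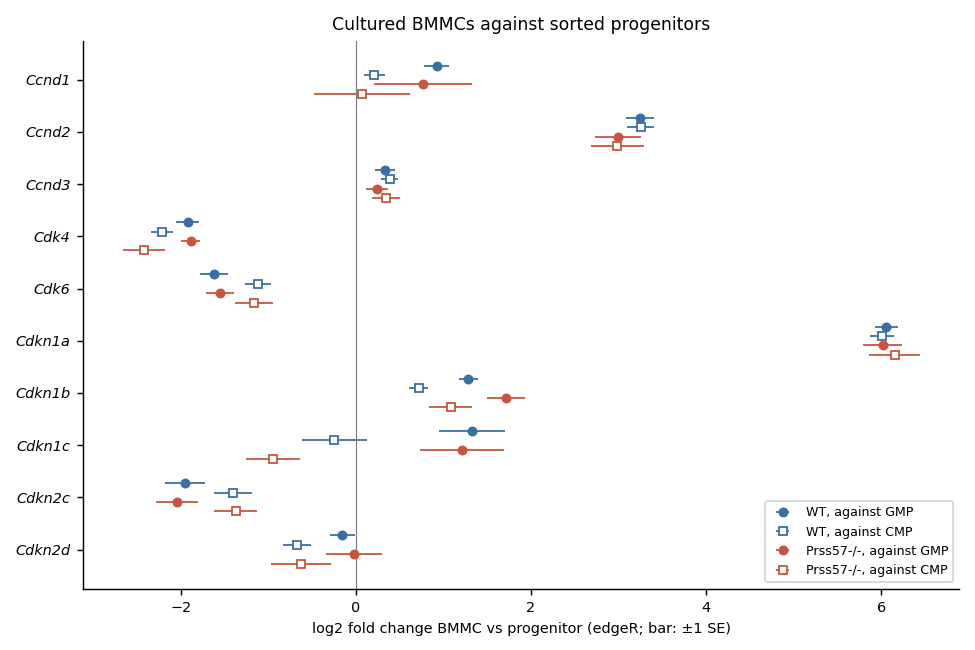
Log2 fold change of BMMCs over GMPs (filled circles) or CMPs (open squares) from edgeR for each of the 10 genes, in wild type (WT, blue) and Prss57-/- mice (red), 5 BMMC and 4 progenitor libraries each, with bars of 1 standard error. Cdkn1a lies at 6.01 to 6.15 and Ccnd2 at 2.98 to 3.25 in all 4 comparisons, Cdk4 lies at -2.42 to -1.89, and the wide red bars of Ccnd1 and Cdkn2d come with library 3 of the Prss57-/- BMMCs.

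The genes around this switch were taken from a list of 32 genes of the G1/S transition and one of 18 proliferation genes. Of the 18 proliferation genes, such as Mki67, Top2a and Mcm2, 17 were lower in BMMCs than in GMPs in wild type and all 18 in Prss57-/- mice (median log2 fold change -2.36 and -2.77, against 0.00 and 0.03 over all genes tested). Against CMPs, 16 were lower in each genotype. None was higher in any of these comparisons. Of the 32 G1/S genes, Cdkn2a and Cdkn2b entered the test only through their reads in BMMCs and are left out of the counts. Of the other 30, 8 were higher and 18 lower than in wild-type GMPs (median -0.82), when 37.5% of all genes were higher and 36.9% lower. In Prss57-/- mice 7 were higher and 19 lower (median -0.97), when 32.2% and 31.1% of all genes were. Against CMPs, 6 were higher and 20 lower in wild type (38.6% and 38.6% of all genes), and 6 higher and 17 lower in Prss57-/- mice (28.9% and 29.9% of all genes).

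All 6 genes of the cyclin E, cyclin A and Cdk2 group were lower in BMMCs in all 4 comparisons. Among them Cks1b, a small subunit that binds cyclin-dependent kinases, had the largest value, at -3.10 against wild-type GMPs (SE 0.29, edgeR adjusted p = 7.52e-07). Skp2, which marks p27 for degradation, was lower in all 4 comparisons as well, at -2.85 against wild-type GMPs (SE 0.13, edgeR adjusted p = 1.60e-09). Of the pocket proteins, the targets of Cdk4 and Cdk6, Rb1 and Rbl2 were higher in all 4 and Rbl1 lower. Rb1 was at 30.3 ± 2.06 normalized RPKM in wild-type BMMCs (SD, n = 5) and 3.84 ± 0.638 in wild-type GMPs (SD, n = 4), a log2 fold change of 2.89 (SE 0.12, edgeR adjusted p = 7.32e-10). Mdm2, like Cdkn1a a known target of p53, was higher against wild-type GMPs at 2.47 (SE 0.10, edgeR adjusted p = 5.85e-10), while Trp53, the gene of p53, was lower at -0.85 (SE 0.08, edgeR adjusted p = 1.28e-06). Skp2, Rb1, Rbl2, Cks1b, Mdm2 and Trp53 were named after their values were seen.

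Cdkn2a and Cdkn2b, listed with the INK4 genes, were seen almost only in BMMCs. Reads were counted per gene, so that different transcripts and products of 1 gene, such as Cdkn2a, cannot be told apart. Cdkn2a had 0 reads in all 8 wild-type progenitor libraries and 861 to 2496 in wild-type BMMC libraries, where it was at 57.1 ± 24.0 normalized RPKM (SD, n = 5). Prss57-/- mice had at most 4 reads of it in a progenitor library and 294 to 2263 in BMMCs, the lowest in library 3. Against a floor of 3 reads per library, which covers counting error only, Cdkn2a was at least 897-fold higher in wild-type BMMCs than in GMPs. Cdkn2b was at 19.0 ± 7.94 normalized RPKM in wild-type BMMCs (SD, n = 5). By the same floor its mean there was at least 356-fold above wild-type GMPs, which had 0 reads. These folds are descriptions, since both genes entered the test only through their reads in BMMCs. Both lie in 1 locus and were named after their values were seen.

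Between GMPs and CMPs, 4 of the 30 G1/S genes tested were lower in GMPs in wild type, 3 in Prss57-/- mice, and none was higher (medians 0.01 and 0.12). Of all genes tested, 10.1% and 4.85% were lower, so that the list's share in wild type is near that of all genes. Those lower in both genotypes were Mycn, Ccne1 and E2f6. Mycn, a gene of the Myc family, was at 6.46 ± 1.05 normalized RPKM in wild-type CMPs and 0.0858 ± 0.0321 in wild-type GMPs (SD, n = 4), where 5 to 17 reads were counted (log2 fold change -6.19, SE 0.28, edgeR adjusted p = 5.13e-07). Ccne1, cyclin E1, which acts after cyclin D, was at 23.8 ± 2.79 and 11.9 ± 0.525 (log2 fold change -0.98, SE 0.11, edgeR adjusted p = 0.000105). The log2 fold changes in Prss57-/- mice were -5.21 for Mycn, -0.80 for Ccne1 and -0.71 for E2f6, a repressor of the E2F family. With 1 library left out, the edgeR adjusted p in Prss57-/- mice rose to 0.0348 for Ccne1 and 0.0432 for E2f6. For Mycn it was at most 0.000515 there. Of the 18 proliferation genes, 3 were higher and 1 lower in wild-type GMPs, when 21.0% of all genes passed, and 1 was higher in Prss57-/- GMPs, when 9.83% did.

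The comparison of genotypes asks whether loss of NSP4 altered these genes. None of the 10 passed in GMPs, CMPs or BMMCs, and none had an unadjusted p under 0.05 by edgeR, DESeq2 or limma voom. Over all genes tested, 0.00681% passed in GMPs, 0.00670% in CMPs and 0% in BMMCs, where 332 genes had an unadjusted p under 0.05 by edgeR, 433 by DESeq2 and 297 by limma voom. In GMPs the log2 fold changes of Prss57-/- over wild type ran from -0.09 (Cdkn1b) to 0.14 (Cdkn1a), with SEs of 0.12 to 0.55. In CMPs they ran from -0.19 (Cdkn2c) to 0.63 (Cdkn1c), with SEs of 0.16 to 0.34. Cdkn1c in CMPs was the only 1 of the 10 genes whose genotypes did not overlap in any cell type, at 32 to 79 reads in Prss57-/- and 21 to 51 in wild type (edgeR adjusted p = 1.00), when the genotypes did not overlap for 0.818% of all genes tested in CMPs. In BMMCs the log2 fold changes ran from -0.19 (Ccnd2) to 0.33 (Cdkn1b), with SEs of 0.08 to 0.48, and without library 3 from -0.36 (Cdkn2c) to 0.20 (Ccnd1).

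An interaction term, which asks whether the genotype effect differs between GMPs and CMPs, passed for none of the 10 genes and for 0% of all genes tested, with 169 genes at an unadjusted p under 0.05 by edgeR, 255 by DESeq2 and 135 by limma voom. The values ran from -0.57 (Cdkn1c) to 0.21 (Cdkn1a), with SEs of 0.21 to 0.63. A p that misses the threshold does not show that the genotypes were alike. For Cdk4, the difference in GMPs was -0.08 with an SE of 0.14, and for Cdkn1c 0.06 with an SE of 0.55.

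The genes most like each of the 10 across the 16 progenitor libraries were found by Pearson's r of log2 CPM over 12709 genes with a mean of at least 1 CPM, a limit that Cdkn1c missed. These libraries share a run and the spread in length slope, so that r is a description. Cdk4 was closest to Smim7, Sdhd and Nudcd2 (r = 0.99 each) and Cdk6 to Prrc2c, Urb1 and Med13 (0.99 each). Ccnd1 was closest to Srgap3, Aen and Adgrl1 (0.94 each), and Cdkn1b to Ddx4, Cd151 and Pnck (0.94 each). Cdkn1a had the loosest matches, with Rps6ka4 (0.87), Erf (0.86) and Rbm38 (0.86). For Ccnd2 they were Nde1, Phf14 and Elf1 (0.96 to 0.97), for Ccnd3 Sema4b, Lrwd1 and 1700017B05Rik (0.92 to 0.96), for Cdkn2c Atg9a, Dtx2 and Pigt (0.97 to 0.98) and for Cdkn2d Sod1, Rpl32l and Rdm1 (0.97 each).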

How the data were processed

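RNA was sequenced as single 50-base reads from stranded total RNA libraries. According to the processing notes and methods, the authors aligned reads to GRCm38 with GSNAP within HTSeqGenie and counted unique reads in exons. They deposited raw read counts per gene and normalized RPKM, in which the size factor of a library was the only scaling for depth. The study calls the libraries biological replicates, from littermates, and p-values measure the spread between them. Groups were taken from the labels.

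The deposited counts were filtered with filterByExpr, scaled by TMM and tested with edgeR 4.0.16 (robust quasi-likelihood test, R 4.3.3), in a fit of the compared groups. A gene passed at a Benjamini-Hochberg adjusted p under 0.01 over all genes tested, with a fold of at least 2 as a second rule. The standard error was the log2 fold change divided by the square root of F. Levels are the deposited normalized RPKM, as mean ± SD. DESeq2 1.42.0, limma 3.58.1 (voom), other scalings, filters and thresholds, a replicate block and leaving out each library were alternatives, and the scripts were tested on simulated counts. The length slope used genes with a mean of at least 100 reads. Besides the 10 genes, the text names genes of the G1/S list that passed in both genotypes between GMPs and CMPs, and others said to be chosen after their values were seen. The members and lists were chosen with earlier results of these data known. Same-numbered libraries did not deviate together in every pair of any comparison.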

Additional observations from a re-analysis of the deposited data

Results flagged for a closer look

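In 9 of the 60 groups of 4 or 5 libraries, 1 library lay apart from the rest of its group by Dixon's test at the 95% level, which chance alone does in about 1 in 20 groups. Prss57-/- BMMC library 3 was the highest for Cdkn1a (586 normalized RPKM, others 409 to 420.1), Cdkn1b (26.2, others 13.0 to 16.1) and Cdkn2d (50.0, others 17.3 to 21.2). Wild-type CMP library 3 was the lowest for Cdk4 (354, others 469 to 481), and its length slope was the highest of its group. Wild-type GMP library 1 was the highest for Cdk4 (460.2, others 321 to 343) and the lowest for Cdk6 (17.2, others 27.4 to 28.7), and its length slope was the lowest of its group. Wild-type BMMC library 3 was the highest for Ccnd1 (11.1, others 7.77 to 8.69), and wild-type BMMC library 1 for Cdkn2d (30.9, others 19.3 to 21.7). Prss57-/- GMP library 3 was the highest for Cdkn1a (8.69, others 5.61 to 5.99).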

How the results depend on the processing

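Between wild-type GMPs and CMPs, 2 of the 10 genes passed, when 21.0% of all genes did. The number, with the share of all genes under the same setting, was 0 with a fold of at least 2 required (12.8%), 5 at an adjusted p under 0.05 (37.8%), 5 by DESeq2 (33.1%), 4 with library size alone (23.6%), 1 with no filter on low counts (13.7%), 1 with all 26 libraries in 1 fit (17.4%), and 0 to 5 with 1 library left out (13.6% to 33.4%). In Prss57-/- mice none passed, when 9.83% of all genes did. The number was 3 at an adjusted p under 0.05 (21.5%), 2 by DESeq2 (21.4%), 1 by limma voom (10.7%), 1 with all 26 libraries (22.4%), 2 with the length slope (20.3%), and 0 to 2 with 1 library left out (5.17% to 19.0%). Between wild-type BMMCs and CMPs, 8 passed (77.2%), and 5 with a fold of at least 2 (57.5%). The causes were not tested. Scaling by library size alone moved the median of all genes from -0.02 to -0.16 between wild-type GMPs and CMPs and from -0.01 to -0.31 between wild-type BMMCs and CMPs.

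Values near 0 changed sign in some settings. Between wild-type GMPs and CMPs these were Ccnd2 (-0.11 with library size alone, -0.15 with the length slope), Ccnd3 (-0.0591 and -0.0877) and Cdkn1a (0.00773 with no filter). In Prss57-/- mice they were Ccnd2 (-0.0410 and -0.37) and Cdkn1a (-0.0447 with the length slope). Between BMMCs and GMPs of Prss57-/- mice, Cdkn2d was at 0.0266 by DESeq2 and 0.0261 with RLE size factors. Against CMPs, Ccnd1 was at -0.10 with library size alone in wild type, and in Prss57-/- mice at -0.24 by limma voom, -0.18 with library size alone and -0.42 with the replicate block. With 1 library left out, log2 fold changes that changed sign ran, between wild-type GMPs and CMPs, from -0.0573 to 0.13 for Ccnd2, -0.00911 to 0.18 for Ccnd3 and -0.13 to 0.0446 for Cdkn1a, and in Prss57-/- mice from -0.10 to 0.26 for Ccnd2. Against Prss57-/- CMPs, BMMCs ran from -0.13 to 0.38 for Ccnd1, against GMPs from -0.40 to 0.11 for Cdkn2d, and Prss57-/- over wild-type GMPs from -0.0237 to 0.23 for Cdkn1a. All 320 levels recomputed stayed within 1 SD.

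The labels give no pairing beyond shared replicate numbers. Same-numbered GMP and CMP libraries correlated at -0.15 to 0.42 in wild type and at -0.01 to 0.72 in Prss57-/- mice, and in no comparison did every library correlate best with its own number. With the replicate block, 3 of the 10 genes passed between wild-type GMPs and CMPs and 0 in Prss57-/- mice (24.3% and 9.33% of all genes), 7 and 6 between BMMCs and GMPs (68.2% and 45.8%), 7 and 4 between BMMCs and CMPs (70.4% and 41.7%), and 0 between genotypes. Cdkn1c, at 5 to 79 reads, is limited by depth.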
